A study of Homo sapiens with 24 samples.

Results

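The 7830 regions described here changed in chromatin accessibility in OCI-LY3 cells after 8 h of CDK9 inhibition (CDK9i), of 26369 distinct regions listed as changed anywhere in the study. All entries of the OCI-LY3 8 h lists were taken, 4367 of increased accessibility (called opened here) and 3463 of decreased accessibility (closed). OCI-LY3 is an established human diffuse large B-cell lymphoma (DLBCL) line. The study's design text counts it as a germinal centre type and the second line, VAL, as an activated B-cell type, whereas OCI-LY3 is generally described as activated B-cell type. Cells received 30 nM AZD4573, a CDK9 inhibitor, and accessibility was measured by ATAC-seq, in which a transposase cuts open DNA. The 0 h group, named DMSO in the region lists, and the 8 h group held 4 libraries each. In each group 2 libraries were made by the standard protocol from 50000 cells and 2 by Fast-ATAC from 5000 cells, per the sample labels, whereas the study's methods describe Fast-ATAC on 50000 cells. No other genotype or agent separated the groups, and the line is a single culture model with no surrounding tissue.

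CDK9 is the kinase of P-TEFb, the complex that releases RNA polymerase II from its pause just downstream of gene starts. Inhibitors of CDK9 stop most new transcription within hours, and transcripts with short half-lives, such as those of immediate early genes, MYC and MCL1, are known to be the first to be lost. Open chromatin marks promoters and enhancers where transcription factors are bound, and it also extends over the bodies and flanks of strongly transcribed genes.

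The values available were positions alone. A region was in a list or not, so no level per library, fold change, replicate spread or test could be given, the standard and Fast-ATAC libraries could not be told apart, and the depth behind each call is unknown. Absence from the lists does not show that a site was unchanged. All shares below are descriptions, and the background is all 20136 annotated protein-coding genes rather than the genes that had a peak. The 95% intervals are Wilson binomial intervals and cover counting error only.

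Sequences upstream of called promoters are shown first, because closed and opened promoters of interferon-response genes carried the same kind of element. The interferon response element was searched as GAAA, any 2 bases and GAAA on either strand, and matches overlapping each other were merged in the display. Each line gives the 200 bases before the start of the canonical transcript on hg19, 5′ to 3′ on the gene's strand, all inside the called region, with the element in capitals. The first 4 promoters closed at 8 h: IFI44 (chr1:79115316-79115515, plus strand), a gene induced by type I interferon, IFIT1 (chr10:91152180-91152379, plus) and IFIT5 (chr10:91174125-91174324, plus), which bind foreign RNA, and TNFSF10 (chr3:172241221-172241420, minus), which encodes the death ligand TRAIL. The next 3 opened: B2M (chr15:45003515-45003714, plus), the light chain of MHC class I, TAP1 (chr6:32821482-32821681, minus), a subunit of the peptide transporter for MHC class I, and BST2 (chr19:17516440-17516639, minus), the antiviral protein tetherin.
IFI44: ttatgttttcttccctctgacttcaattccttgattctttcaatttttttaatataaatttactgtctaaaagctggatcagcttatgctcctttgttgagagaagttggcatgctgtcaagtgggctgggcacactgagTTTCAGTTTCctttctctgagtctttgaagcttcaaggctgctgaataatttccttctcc
IFIT1: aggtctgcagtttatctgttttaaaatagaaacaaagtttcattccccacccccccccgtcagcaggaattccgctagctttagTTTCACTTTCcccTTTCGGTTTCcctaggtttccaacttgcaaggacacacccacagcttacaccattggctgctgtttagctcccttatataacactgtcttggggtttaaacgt
IFIT5: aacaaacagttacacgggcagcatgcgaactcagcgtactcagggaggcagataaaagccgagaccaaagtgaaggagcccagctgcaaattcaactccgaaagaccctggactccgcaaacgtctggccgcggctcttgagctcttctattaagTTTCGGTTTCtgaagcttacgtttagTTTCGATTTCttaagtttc
TNFSF10: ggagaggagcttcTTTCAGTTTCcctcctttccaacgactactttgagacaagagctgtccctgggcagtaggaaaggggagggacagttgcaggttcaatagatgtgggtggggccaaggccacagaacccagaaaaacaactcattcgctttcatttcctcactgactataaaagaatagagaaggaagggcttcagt
B2M: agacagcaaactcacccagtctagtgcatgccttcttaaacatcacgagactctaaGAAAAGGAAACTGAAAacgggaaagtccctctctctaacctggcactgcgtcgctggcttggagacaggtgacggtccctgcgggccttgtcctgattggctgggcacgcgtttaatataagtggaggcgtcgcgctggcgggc
TAP1: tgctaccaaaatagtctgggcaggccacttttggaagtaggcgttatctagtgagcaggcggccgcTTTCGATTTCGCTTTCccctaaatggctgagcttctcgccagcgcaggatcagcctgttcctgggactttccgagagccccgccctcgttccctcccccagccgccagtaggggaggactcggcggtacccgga
BST2: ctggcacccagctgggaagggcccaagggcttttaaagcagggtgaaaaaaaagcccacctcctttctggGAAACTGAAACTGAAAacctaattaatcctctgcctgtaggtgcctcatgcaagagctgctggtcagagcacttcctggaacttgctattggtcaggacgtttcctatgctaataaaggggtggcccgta

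The element lay 60 bases before the IFI44 start, at 116 and 103 bases before the IFIT1 start, at 45 and 19 bases before the IFIT5 start and 187 bases before the TNFSF10 start. In the opened promoters the matches overlapped, at 144 and 138 bases before the B2M start, 134 and 128 bases before the TAP1 start, and 130 and 124 bases before the BST2 start. Over all genes with a canonical start, 436 of 19844 (2.20%) held the element within these 200 bases. It was present in 15 of 258 genes with a closed promoter (5.81%) and in 37 of 1870 genes with an opened promoter (1.98%). The called region could lie at another start of the gene, so these 200 bases need not be inside it. With the canonical transcript alone, 217 of 259 closed and 1749 of 1876 opened genes were called. Besides the 4 genes above, the 15 included IL15, a cytokine of lymphocyte survival, TRIM5, a restriction factor, and RTP4 and DDX60L, both interferon-induced. These were named after their values were seen.

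Among other elements, the ETS and cyclic AMP elements gave different pictures in the 200 bases upstream of the start and the middle of the region. The NF-kB element and the octamer gave like pictures in both windows. The ETS element CTTCCGG lay upstream of the canonical start in 405 of 1870 genes with an opened promoter (21.7%). It was there in 2160 of all 19844 genes (10.9%) and in 9 of 258 genes with a closed promoter (3.49%). Upstream shares of opened, closed and all promoters below refer to these same windows. The NF-kB element in its usual form with 3 leading G and 2 trailing C was present in 38 opened promoters (2.03%), against 1.18% of all promoters and 1.16% of closed ones. The cyclic AMP response element TGACGTCA was present in 3.26% of opened promoters and 2.28% of all promoters. Over the middle 200 bp of opened promoter regions, against 200 bp around the starts of all genes, the ETS element was at 11.6% against 11.3%, the cyclic AMP element at 1.48% against 2.00% and the NF-kB element at 1.69% against 0.917%. The cyclic AMP element was thus higher in opened promoters upstream only, and the ETS shares in the middle window differed by less than their counting intervals. The octamer ATGCAAAT, bound by the OCT factors of B cells, was about as frequent upstream of the start in opened promoters (1.23%) as in all promoters (1.22%), and was at 0.929% against 0.751% in the middle window, also within the counting intervals. Both strands were searched for each.

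Examples of these elements stood in opened promoters of genes named below. Of 12 NF-kB pathway genes with the NF-kB element upstream 2 opened, and of 4 such TNF ligand and receptor genes 1 did. Of 4 ribosomal protein genes with the cyclic AMP element 2 opened. The NF-kB element is in capitals in LTB (chr6:31550202-31550401, minus), which encodes lymphotoxin beta, and NFKBIB (chr19:39390409-39390608, plus), which encodes an inhibitor of NF-kB. The cyclic AMP element is in capitals in RPL18 (chr19:49122436-49122635, minus), a ribosomal protein gene.
LTB: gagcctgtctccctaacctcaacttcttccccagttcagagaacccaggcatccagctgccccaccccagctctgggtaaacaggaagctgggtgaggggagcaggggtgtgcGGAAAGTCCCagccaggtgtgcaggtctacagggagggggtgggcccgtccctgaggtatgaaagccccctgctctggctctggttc
NFKBIB: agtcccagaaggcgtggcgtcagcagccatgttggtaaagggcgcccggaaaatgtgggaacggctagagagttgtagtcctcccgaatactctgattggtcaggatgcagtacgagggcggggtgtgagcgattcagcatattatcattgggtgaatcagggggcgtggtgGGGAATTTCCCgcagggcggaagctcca
RPL18: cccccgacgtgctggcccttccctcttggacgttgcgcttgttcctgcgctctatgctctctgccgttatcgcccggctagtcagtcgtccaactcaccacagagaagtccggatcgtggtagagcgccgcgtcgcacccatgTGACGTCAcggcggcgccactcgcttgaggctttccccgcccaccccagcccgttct

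A match in these windows is a description of the letters and does not show that a factor was bound. The same search over the middle 200 bp of each region gave the interferon response element in 311 of 3463 closed regions (8.98%), 77 of 4367 opened regions (1.76%) and 3.21% of the regions listed only elsewhere in the series. Away from promoters the share was 9.42% of closed regions and 2.25% of opened regions. Over whole regions it was 30.1% of all closed and 14.4% of all opened regions, a smaller ratio. Median GC was 42.8% in closed and 53.5% in opened regions, and the part of base composition in motif shares was not tested.

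Promoters opened far more often than they closed. A region lay within 1000 bp of a transcription start site (TSS) of 1876 of the 20136 protein-coding genes among opened regions (9.32%) and of 259 genes among closed regions (1.29%), and no gene had both. Opened regions at promoters were wider and richer in G and C (median 1600 bp and 59.5%) than those in introns (1230 bp and 48.7%), and closed regions away from genes were lower in GC (intergenic median 42.3%). Among opened regions with a midpoint within 1000 bp of a canonical start, 942 had it downstream and 456 upstream, and the median midpoint was 80.0 bp into the gene. The widest opened promoter region, 2968 bp, lay over JUNB, an AP-1 subunit, and a second of equal width over PRKD2, a kinase downstream of antigen receptors. The other 8 of the 10 widest lay at LYL1, NACC1 with TRMT1, EZR, TICAM1, CDKN1A, GPATCH4, HYPK with SERINC4, and CD72. The widest closed promoter regions were at SRI (3008 bp), a calcium-binding protein, and PLXNC1 (2995 bp), a semaphorin receptor, followed by SLC26A4, GPR174, TSPOAP1, MAP2, NDRG4 and BMP3 and by 2 loci named only by an identifier.

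The protein synthesis machinery stood well above that background. Of 82 cytosolic ribosomal protein genes, 35 had an opened promoter (42.7%) and 0 a closed one. Examples were RPL18 (chromosome 19, 49121887 to 49123263), RPS19 (42363469 to 42365110 on the same chromosome) and FAU (chromosome 11, 64888999 to 64890320). Translation initiation and elongation factors, found by symbol and so including the kinases EIF2AK1 and EIF2AK4, had 20 opened promoters of 63 (31.7%), among them EIF4A1, EIF4A2, EIF4G1, EIF5 and EEF1G. The single closed promoter in that list was that of EIF4EBP3, which encodes a repressor of cap-dependent translation. Aminoacyl-tRNA synthetases had 9 of 35 (25.7%), with AARS1, CARS1, MARS1 and VARS1 among them. In each of these lists more promoters opened, as a share, than among all genes.

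**Figure D1:**
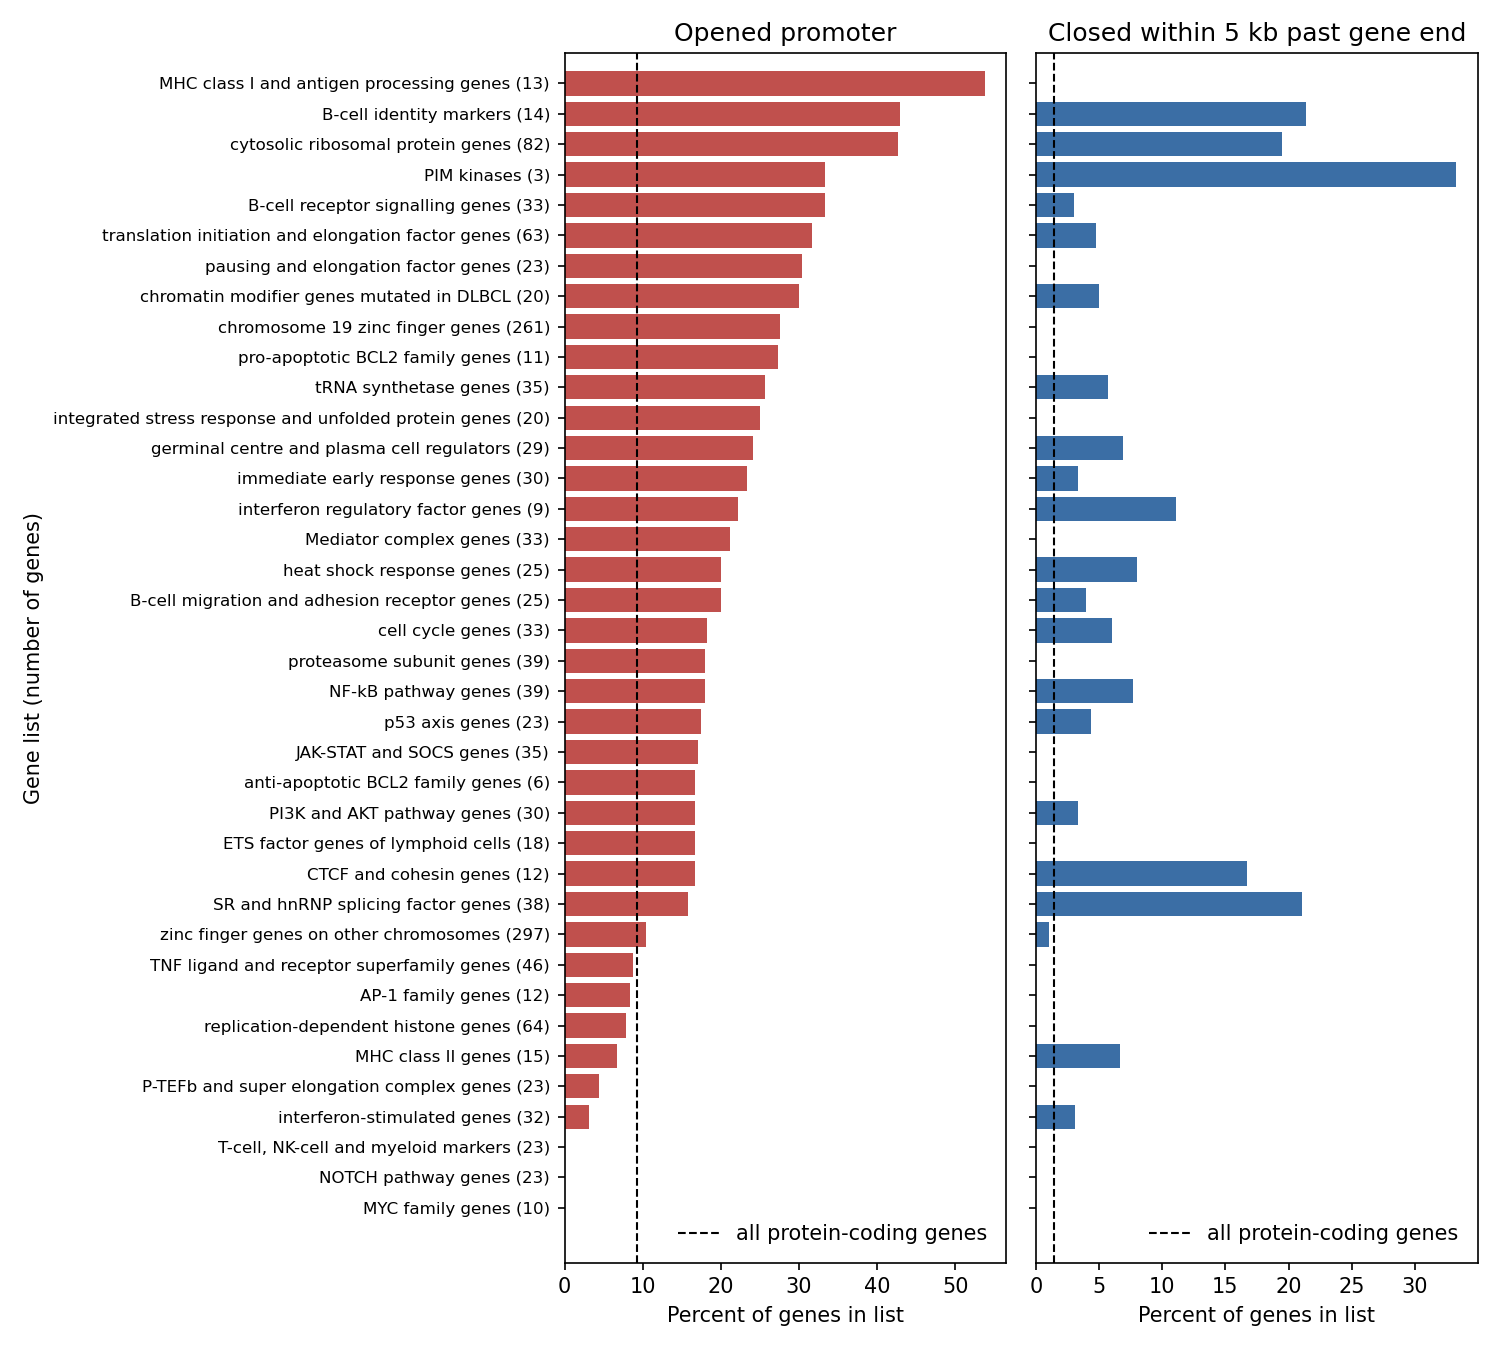
Percent of genes in each of 38 lists with an opened promoter (left) and with a closed region within 5 kb past the gene end (right) in OCI-LY3 at 8 h. Bars are shares of the genes in parentheses, and dashed lines are all protein-coding genes (9.32% and 1.46%). MHC class I genes lead on the left at 53.8%, and on the right PIM kinases (33.3%, 1 of 3 genes), B-cell identity markers (21.4%), splicing factor genes (21.1%), ribosomal protein genes (19.5%) and CTCF and cohesin genes (16.7%) stand highest.

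Transcription and protein turnover genes followed. Pausing and elongation factors opened at 7 of 23 promoters (30.4%): NELFB and NELFE, subunits of the negative elongation factor that holds the polymerase, SUPT5H and SUPT6H, INTS3 and INTS11 of the Integrator, and RTF1. In the P-TEFb and super elongation complex list 1 of 23 opened, that of CDK12 (chromosome 17, 37617256 to 37618546), another kinase of the polymerase tail. The promoter of ELL2, an elongation factor of plasma cells, closed (chromosome 5, 95296300 to 95298349). CDK9 itself had no called promoter, and 2 opened regions lay 6887 and 9310 bp before its start. Mediator opened at 7 of 33 (21.2%), proteasome subunits at 7 of 39 (17.9%), SR and hnRNP splicing factors at 6 of 38 (15.8%), and replication-dependent histone genes at 5 of 64 (7.81%), the last below the background. Chromosome 19 zinc finger genes opened at 72 of 261 (27.6%) and those elsewhere at 31 of 297 (10.4%). The first share was like that of its chromosome, where 345 of the other 1219 protein-coding genes (28.3%) had an opened promoter. Over the whole chromosome it was 417 of 1480 genes (28.2%). JUNB, CD79A, CD37, BAX, POU2F2 and NFKBIB, named in other lists, also lie there. Those lists were set against all genes only, and the part of the chromosome in their shares was not tested. The chromosome 19 list was built by symbol and includes ZFP36, which encodes the mRNA decay factor tristetraprolin rather than a DNA-binding finger protein.

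Genes of the B-cell receptor opened at 11 of 33 promoters (33.3%) with 0 closed. CD79B, a signalling chain of the receptor, had 3 opened regions, at its promoter and at 2904 and 847 bp past the gene end, by midpoint. CD79A opened at its promoter (chromosome 19, 42380680 to 42382229), and others included CD81, CR2, VAV1, GRB2 and INPP5D. CD72, an inhibitory coreceptor, had 5 opened regions, of which the promoter region was 2922 bp wide, and none of the 5 was in the VAL 8 h list. BTK, LYN and SYK, the kinases nearest the receptor, had 1 closed region each in the body or 10 kb on either side and no called promoter. In that window 4 of the 33 genes had a closed region (12.1%), near the 10.1% of all genes. An opened region there was found at 16 (48.5%, against 21.2% of all genes).

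Among 14 B-cell identity markers 6 opened at promoters (CD37, CD79A, CR2 and FCER2 among them), and among 23 markers of T, NK and myeloid cells 0 did, with 1 opened region each near ITGAM and NCAM1. The B-cell markers also held closed regions, 5 of the 14 in the body or 10 kb on either side (35.7%, against 10.1% of all genes) and 3 past the gene end (21.4%, against 1.46%). The 5 were MS4A1, CD38, PAX5, EBF1 and BANK1. The 35.7% was not adjusted for gene length, and a longer gene has a larger window. CD37, a tetraspanin of mature B cells, carried 6 opened regions over a gene of 8.16 kb. Their midpoints ran from 9340 bp before its start to 7535 bp past its end, and 4 of the 6 were also opened in VAL at 8 h.

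Regulators of the germinal centre and plasma cell state opened at 7 of 29 promoters (24.1%) and closed at 1. Over the body and 10 kb on either side the same list had opened regions at 17 genes (58.6%, against 21.2% of all genes) and closed regions at 12 (41.4%, against 10.1%), the highest closed share of the 38 lists. The 12 included BCL6, PAX5, EBF1, BACH2, IKZF1 and CIITA. This window grows with gene length, and genes with a closed region in it had a median length of 91.1 kb, against 27.2 kb for all. The part of gene length in the list's share was not tested. The opened promoters were those of SPIB, SPI1 and IRF8, partners at composite ETS and interferon elements, POU2F2, MEF2B, ID3 and XBP1. SPIB opened over a 2623 bp region at its start. IRF8 opened 3763 bp into the canonical transcript, over an alternative start, and at 2 intronic regions. The closed promoter was an alternative start of PRDM1, the master regulator of plasma cells, 93573 bp before the canonical start (chromosome 6, 106439810 to 106441465), and the canonical PRDM1 start was in no list. BCL6, the germinal centre repressor, and PAX5, the B lineage factor, had closed regions past their ends. POU2AF1, the coactivator of the OCT factors, had 2 opened and 2 closed regions.

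MHC class I and antigen processing gave the highest share of any list, with 7 of 13 promoters opened (53.8%), including HLA-B, HLA-E, B2M, TAP1 and PSMB9. TAP1 and PSMB9 are divergent neighbours and shared a single region (chromosome 6, 32820668 to 32822758). B2M was opened over 2674 bp and was not in the VAL 8 h list, and neither was HLA-E, whereas HLA-B and TAP1 were. In contrast, MHC class II genes opened at 1 of 15 promoters, that of HLA-DRA. Of the 5 class I genes with an interferon response element upstream, 3 opened and 0 closed, whereas of 16 such genes in the list of interferon-stimulated genes 1 opened and 3 closed.

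Interferon-stimulated genes had 1 opened promoter of 32 (BST2) and 3 closed (IFI44, IFIT1 and IFIT5), 9.38% against 1.29% of all genes. The IFI44 region was 2362 bp wide (chromosome 1, 79114919 to 79117280) and also fell within 10 kb of IFI44L. The IFIT1 and IFIT5 regions were 1520 and 1875 bp wide. Interferon regulatory factor genes opened at 2 of 9 promoters (IRF3 and IRF8), and IRF1 had 2 closed regions 884 and 3623 bp past its end. These counts are small, and no test was possible.

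Genes of NF-kB signalling opened at 7 of 39 promoters (17.9%): RELA, an NF-kB subunit, the inhibitors NFKBIB, NFKBID and NFKBIZ, and TNIP1, TRAF2 and IRAK1. RELB had 4 opened regions without a called promoter. The neighbouring genes LTA, TNF and LTB, cytokine targets of NF-kB, shared 3 opened regions within a span of chromosome 6 from 31539562 to 31550760, 1 at each promoter. Together with TNFSF9 they made the 4 opened promoters of 46 TNF ligand and receptor genes (8.70%), a share below that of all genes, and TNFSF10 closed (chromosome 3, 172239936 to 172241918). JAK-STAT genes opened at 6 of 35, including IL10, whose region spanned 2912 bp and was not listed in VAL at 8 h, SOCS1, JAK3, TYK2, IL4R and IL21R. Migration receptors opened at 5 of 25, with CXCR5 and CCR7 of the B-cell follicle and T zone, S1PR4, ITGAL and ITGB7.

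Immediate early genes, whose induction is known to depend on pause release, opened at 7 of 30 promoters (23.3%): BTG2, DUSP2, GADD45B, MCL1, PPP1R15A, SRF and ZFP36. Some of these, such as ZFP36, lie on chromosome 19, where 28.2% of genes had an opened promoter. Of 12 AP-1 genes JUNB alone opened at its promoter, and ATF3 had 3 closed regions near it, none at its canonical start. Integrated stress response and unfolded protein genes opened at 5 of 20 (25.0%), including ATF4, the central stress factor, ATF5 and CHAC1, its targets, and XBP1. Heat shock genes opened at 5 of 25 (HSPA1B, DNAJB1, DNAJA1, HSP90AB1 and HSF1). CDKN1A, the cell cycle inhibitor p21, had 3 opened regions, with the widest at its promoter (chromosome 6, 36645939 to 36648865). Pro-apoptotic BCL2 family genes opened at 3 of 11 (BAX, BAD and BAK1), and anti-apoptotic ones at 1 of 6 (MCL1).

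The remaining lists were small and varied. Chromatin modifiers mutated in DLBCL opened at 6 of 20 promoters (30.0%; KMT2D, SETD2, SETD5, CHD8, BCL7A and SMARCA4), cell cycle genes at 6 of 33, PI3K and AKT genes at 5 of 30, ETS factors at 3 of 18, CTCF and cohesin genes at 2 of 12, and PIM kinases at 1 of 3 (PIM2). NOTCH pathway genes and MYC family genes opened at 0 of 23 and 0 of 10. DTX1, a regulator of NOTCH signalling mutated in lymphoma, held 4 opened intronic regions between 6139 and 30409 bp into the gene. MYC had 2 closed regions and no opened one: 1 centred 10252 bp before its start and 1 over its final exon, 626 bp inside the gene end. The region over the final exon was also closed in VAL at 3 h. Neither overlapped a region closed in VAL at 8 h, when VAL had 1 other closed region near MYC. BCL2L1 had 2 opened regions 14051 and 16885 bp into the gene, in an intron. BBC3, which promotes apoptosis, had 2 opened regions, PLCG2 had 1, and PIM3, CXCR4, MDM2, MED12 and PIK3AP1 had none in either direction.

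Closed regions gathered just past the ends of genes. Away from promoters, 211 of 3004 closed regions (7.02%) had their midpoint 1 to 5 kb past the nearest canonical gene end, against 73 (2.43%) in the mirror interval inside it, a ratio of 2.89. In comparison, 33 closed regions lay 1 to 5 kb before the nearest gene start. Opened regions showed no such excess, with 79 of 2538 (3.11%) past the end and 109 (4.29%) inside it. The densest 500 bp for closed regions, with 44, began 1000 bp past the end. The same interval comparison in VAL at 8 h, which shares no library with OCI-LY3, gave 274 closed regions past the end and 132 inside it, a ratio of 2.08. In the OCI-LY3 3 h lists, which share the 0 h libraries, the closed counts were 202 of 1424 (14.2%) and 64 (4.49%), a ratio of 3.16. Of the 287 regions closed at 8 h within 5 kb past a gene end, 185 (64.5%) were also closed at 3 h. Of closed regions neither at a promoter nor past a gene end, 17.1% were. The sites that had a peak but did not change are not listed, so the share expected there is unknown.

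**Figure D2:**
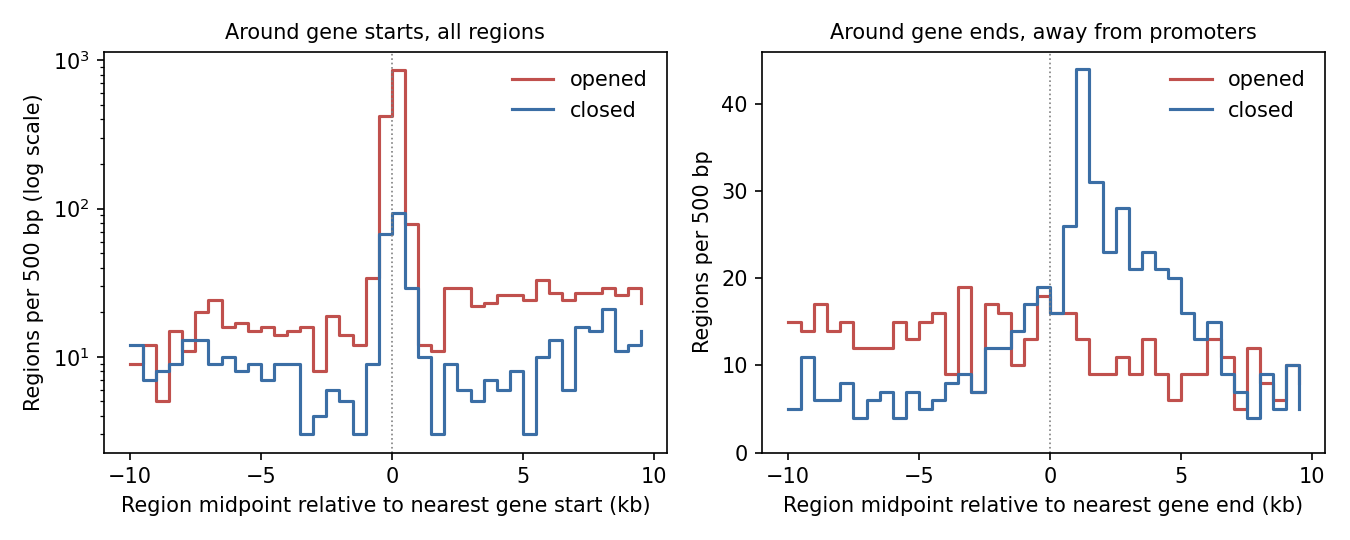
Number of opened (red) and closed (blue) regions per 500 bp by the distance of the region midpoint from the nearest canonical protein-coding gene start (left, all regions, log scale) and gene end (right, regions away from promoters, linear scale). Opened regions peak over the first 500 bp of genes, and closed regions rise past gene ends, to 44 in the bin from 1000 to 1500 bp.

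With a zone of 5 kb past the end, 294 protein-coding genes (1.46%) had a closed region there and 156 (0.775%) an opened one, with regions at promoters left out. Ribosomal protein genes had 16 of 82 (19.5%), and SR and hnRNP splicing factors 8 of 38 (21.1%). Smaller lists with like shares were B-cell identity markers with 3 of 14 (21.4%), CTCF and cohesin genes with 2 of 12 (16.7%, RAD21 and STAG2) and PIM kinases with 1 of 3 (33.3%). RPS12 had a closed region of 2715 bp centred 2688 bp past its end (chromosome 6, 133140034 to 133142748), and 2 further closed regions lay 5427 and 6918 bp past it. RPSA, RPS3A, RPS4X, RPL21 and RPL37A each had a closed region centred between 1335 and 2290 bp past the end, and HNRNPA1, HNRNPA2B1 and HNRNPK had theirs at 1613, 2137 and 2693 bp. HSPA8, the constitutive heat shock chaperone, had 2214 bp closed at 2870 bp past its end. The same placement was seen at MS4A1 (CD20), 1289 bp past the end, CD74, the MHC class II invariant chain, at 183 bp, CD38 at 2100 bp, CD83 at 931 bp, BCL6 at 1718 bp, NFKB1 at 1376 and 3136 bp, CDK1 at 3125 and 4006 bp, and PIM1 at 1658 bp.

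**Figure D3:**
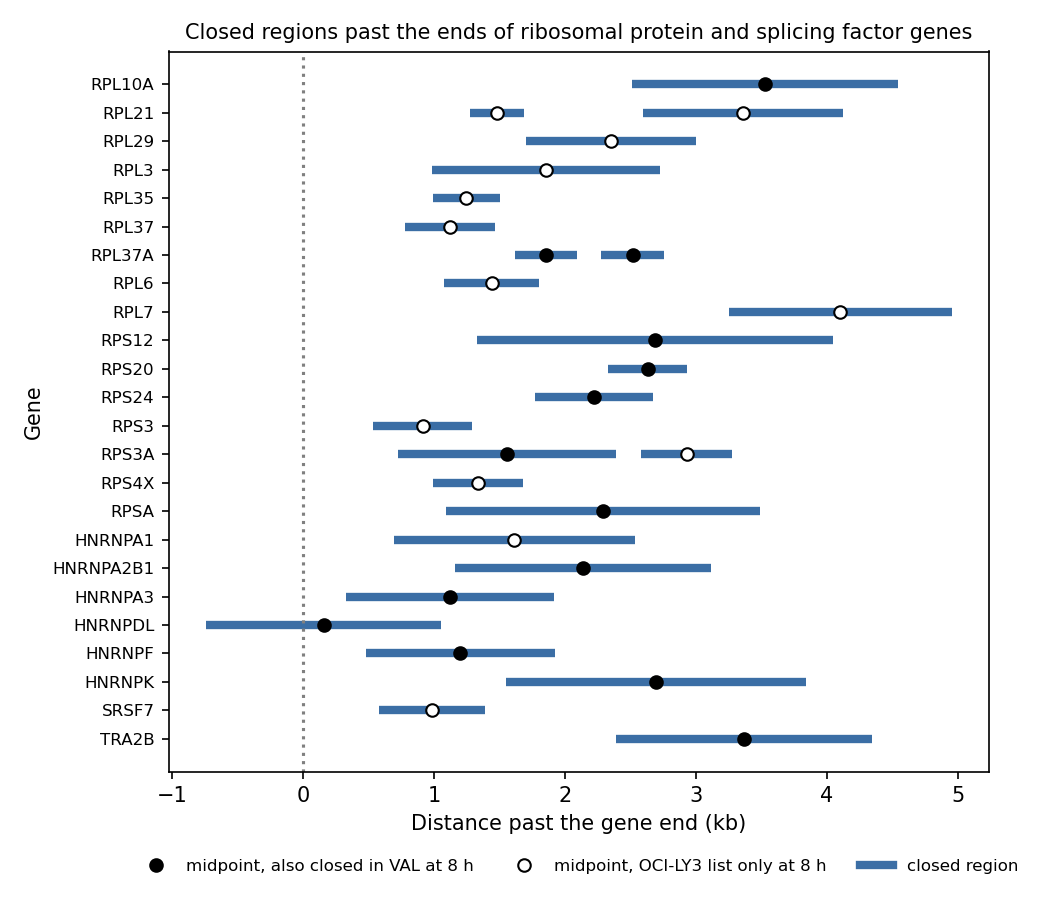
Closed regions within 5 kb past the ends of the ribosomal protein and splicing factor genes that had one, drawn to scale by distance past the gene end in kb. Dots are midpoints, filled where the same region was closed in VAL at 8 h, as for RPS12, RPSA and HNRNPK.

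At 21 of the 294 genes with a closed region past the end (7.14%) the promoter opened, a share below the 9.32% of all genes. They included RPS3, RPL29 and RPL10A, EIF4A2 and EIF3M, the glycolytic enzyme GAPDH, the peroxidase PRDX1, PPIA, SRSF7, ACTN4 and NFKBIZ. EIF4A2 opened from 186500616 to 186502533 and closed from 186507210 to 186509939 on chromosome 3, around the start and 889 bp past the end. NFKBIZ opened at its start (chromosome 3, 101567577 to 101569621) and closed 2542 bp past its end. The genes with closed regions past the end were not shorter than others, with a median length of 34.5 kb against 27.2 kb for all protein-coding genes. Genes with an opened promoter had a median of 18.1 kb. Expression was not part of the files used here, so the relation to transcript level was not tested.

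Genes with many regions differed by direction. An opened region was found in the body or the 10 kb on either side of 4265 genes (21.2%), and a closed one for 2029 genes (10.1%). At least 5 opened regions were found at 40 genes and at least 5 closed regions at 12. KCNN3, a calcium-activated potassium channel gene, led with 8 opened regions, 6 of them intronic, 1 at an alternative start and 1 upstream of the gene, of which 7 were opened in VAL at 8 h. SMARCA4, the ATPase of the BAF remodelling complex, DNMT1, the maintenance DNA methyltransferase, GSE1 and GNG7 had 7 each. At GSE1 none lay inside the canonical transcript: they ran from 353999 bp before its start to 9946 bp past its end. For DNMT1 they lay from its start (108 bp) to 46483 bp before the canonical start, towards S1PR2, a germinal centre confinement receptor. POU2F2, ZFPM1, ITPKB, IQSEC1, RBM6, RSKR, KLC1, EHD1, VPS51, CD37, SNX29, FRMD8 and CDC37 had 6. Those at RSKR were counted there through an annotated span of 158 kb, lay 8909 to 106724 bp past the end of its canonical transcript, and 5 of them were at promoters of other transcripts. The 6 at ITPKB, a kinase that limits B-cell receptor signalling, were spread from 5506 to 85511 bp into the gene, and none was opened in VAL at 8 h. None of the 18 opened genes named here held a closed region.

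**Figure D4:**
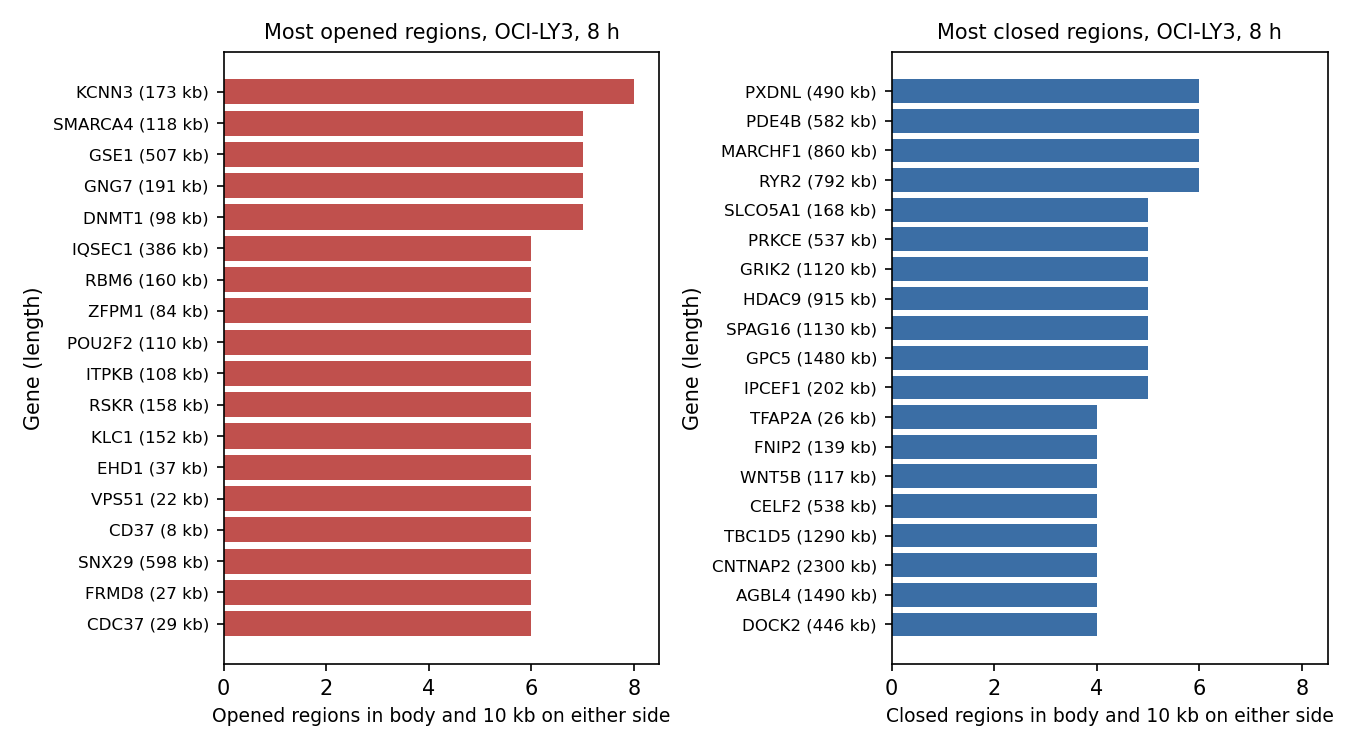
Number of opened (left) and closed (right) regions in the gene body and 10 kb on either side for the genes with the most, with gene length in parentheses. Opened counts run from 6 to 8 and closed counts from 4 to 6, and the longest genes are on the closed side.

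Closed regions collected in very long genes. PXDNL, PDE4B, MARCHF1 and RYR2 had 6 each, over lengths of 490 to 860 kb, which is at most 1.18 closed regions per 100 kb of the gene and the 10 kb on either side. On the same measure CD37 had 21.3 opened regions per 100 kb and VPS51 14.1. SLCO5A1, PRKCE, GRIK2, HDAC9, SPAG16, GPC5 and IPCEF1 had 5 closed regions. The median length of genes with a closed region in the window was 91.1 kb, against 25.3 kb for genes with an opened one and 27.2 kb for all genes, and a longer window catches more regions by its size alone. PDE4B, a cyclic AMP phosphodiesterase, had all 6 in introns, from 19516 to 549851 bp into the gene, and 0 were closed in VAL at 8 h. Among the genes named here, TFAP2A had the most closed regions for its window, 4 for a gene of 26.5 kb (8.61 per 100 kb). In all 23 genes had 4 closed regions, and those with the most bases covered also included FNIP2, WNT5B, CELF2, TBC1D5, CNTNAP2, AGBL4 and DOCK2. Both directions, with at least 2 regions each, occurred at 15 genes, led by AUTS2 with 2 opened and 4 closed, then ADGRD1, DAB1, PARD3 and OSBPL10, NAV3, PRKDC, FAM53B and POU2AF1. At DAB1 most regions lay 797560 to 1102481 bp before the canonical start, inside the longer annotated span. At 290 genes there was at least 1 of each.

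Opened regions came in runs. With a gap of at most 20 kb and no closed region between, 1607 of 4367 opened regions (36.8%) stood in runs of at least 2, against 469 of 3463 closed regions (13.5%), and runs of at least 5 numbered 41 for opened regions and 0 for closed ones. The longest by count held 9 opened regions each. The first covered 99.2 kb of chromosome 11 (67112806 to 67212048) from RAD9A and POLD4 through CLCF1, PPP1CA, TBC1D10C, RPS6KB2 and CORO1B to PTPRCAP, the CD45-associated protein, with 7 of the 9 at promoters. The second covered 76.1 kb of the same chromosome (65149234 to 65225321) over SLC25A45, FRMD8 and the long non-coding RNA NEAT1, the scaffold of paraspeckles. Of its 9 regions 8 were opened in VAL at 8 h.

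A run of 8 on chromosome 9 (35598628 to 35665726) covered TESK1, CD72, SIT1, CCDC107 and ARHGEF39, and 1 of the 8 was opened in VAL. Runs of 8 also covered KCNN3 and the interval from DNMT1 to S1PR2. Runs of 7 covered LTBP3 to PCNX3 and PLCB3 to RPS6KA4 on chromosome 11, ARHGAP45 to SBNO2 on chromosome 19, CD2BP2 to SEPTIN1 on chromosome 16, and TMEM235 with LINC01993 on chromosome 17. In each of these 5 runs all 7 regions were also opened in VAL at 8 h. The closed runs had at most 4 regions. These were a stretch of chromosome 13 without a protein-coding gene (77912654 to 77934803), AGBL4 with BEND5, PAG1, an adaptor that anchors the kinase CSK, and MARCHF1, a ubiquitin ligase that removes MHC class II from the surface. Among the 10 longest closed runs, those of 3 regions were at SLA, TFAP2A, KLHL29, SLC2A3, STK3 with OSR2, and NAXD with CARS2.

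Densities along chromosomes differed by direction as well. Over the 22 autosomes opened regions ranged from 0.452 per Mb on chromosome 13 to 10.1 per Mb on chromosome 19, where 595 opened and 8 closed. Closed regions were densest on chromosomes 6 (1.78 per Mb), 13 (1.75) and 12 (1.70). Chromosome 13, with 2.80 protein-coding genes per Mb and 38.5% GC, had 52 opened and 201 closed regions, and chromosome 4, with 3.98 genes per Mb and 38.2% GC, had 102 and 297. Gene density and GC content moved with the direction across chromosomes, and their part in it was not tested.

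The share of OCI-LY3 changes that were met in VAL differed by place. Of opened promoter regions, 1355 of 1829 (74.1%, interval 72.0 to 76.0) were also opened in VAL at 8 h, against 893 of 2398 opened regions that were neither at a promoter nor past a gene end (37.2%, 35.3 to 39.2). For closed regions the shares were 31.2% at promoters (27.1 to 35.5), 43.9% within 5 kb past a gene end (38.3 to 49.7) and 30.4% elsewhere (28.7 to 32.2). The shared regions made up 20.9% of the VAL opened list and 11.8% of the VAL closed list, which are longer. Opposite calls were few. Of the OCI-LY3 opened regions 34 were closed in VAL, including the promoter of PLEK, a platelet and leukocyte kinase substrate. Of the closed regions 71 were opened in VAL, including promoters of FAN1, MAPT, CTTN, PTP4A3, PARVG and ALDH3A2.

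**Figure D5:**
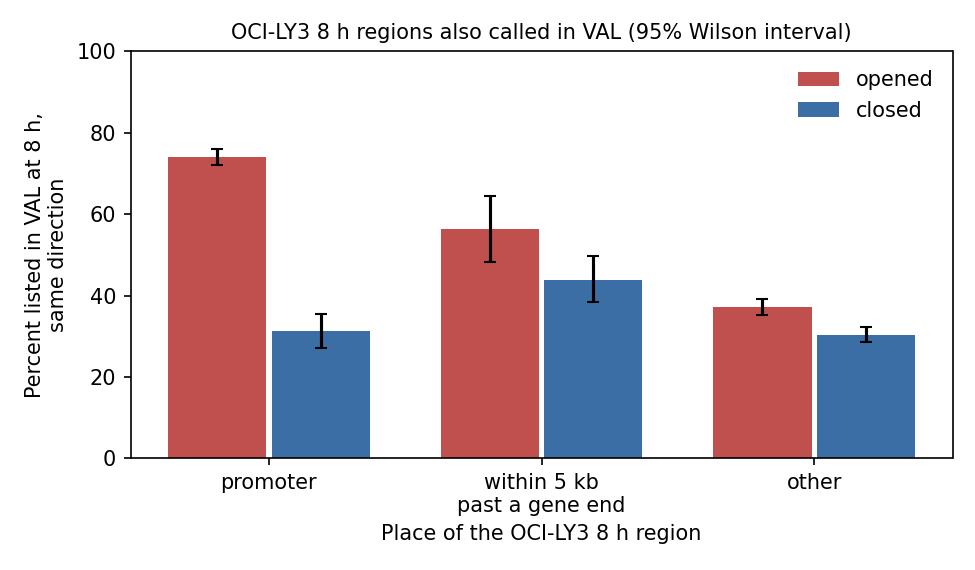
Percent of OCI-LY3 8 h regions that were also listed in VAL at 8 h in the same direction, by place, for opened (red) and closed (blue) regions. Error bars are 95% Wilson intervals for counting error, and opened promoters stand highest at 74.1%.

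In OCI-LY3, 1525 opened regions (34.9%) and 1864 closed regions (53.8%) were in no other list of the same direction. Among the genes described above, the IFI44 and ELL2 promoters, the alternative PRDM1 start, the promoters of B2M, HLA-E, XBP1, CD72, CR2, CCR7 and IL10, and the intergenic region upstream of BTG2 had this pattern. Whether VAL differed from OCI-LY3 at these sites was not tested, since a region absent from the VAL list may have changed below the threshold.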

How the data were processed

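ATAC-seq was performed on OCI-LY3 and VAL cells at 0, 3 and 8 h of 30 nM AZD4573, with 4 libraries per group and 24 in all. Per the methods and labels, the authors used Bowtie2 to map reads onto hg19. Mitochondrial, multiply mapping and duplicate reads were dropped by the authors, who then called peaks for each sample with MACS2, merged these and counted reads in them with bedtools. Groups were compared by the authors with DESeq2, keeping regions past a fold change of 1.5. The adjusted p limit is given differently in different places of the study and was not used. The deposited lists hold coordinates without counts or scores, and 0 columns of per-sample values were left unmapped. The labels do not say whether replicates were separate cultures.

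The lists were read as BED intervals (printed from base 1) and placed on the GENCODE v44lift37 basic annotation, with sequence from GRCh37. Each region was counted once, as promoter (within 1000 bp of any TSS), else by its midpoint as coding exon, UTR exon, non-coding exon, intron or intergenic. Genes were scored by promoter, by body with 10000 bp on either side, and by the 5000 bp past the canonical end, a zone chosen after the data were seen. Motifs were exact letter matches on both strands. The 38 gene lists, members and named genes were chosen with earlier results of these data known. The rule named the 20 genes with the most regions per direction, 10 genes with both directions, the 10 widest promoter regions and 10 longest runs per direction, up to 8 members of each list, and the genes the study discusses. No test was run, since only positions were given, and the interval code was tested on simulated data. Python 3.11.15 was used with numpy 2.4.6, scipy 1.17.1, pysam 0.24.0 and matplotlib 3.10.9. The depth of the libraries is not given in the sources used here. Alternatives were other promoter widths, transcript sets, gene windows, region merging, overlap rules and motif windows. Some items are not reported here.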

Additional observations from a re-analysis of the deposited data

How the results depend on the processing

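Of 31 alternatives, 20 kept the value within 1.5 times (counts) or within its counting interval (shares), 11 moved it and 0 reversed it. The percent of opened regions at a promoter, 41.9, was 40.1 within 500 bp, 45.5 within 2000 bp and 35.7 with starts of protein-coding genes only. For closed regions it was 13.3, and 11.9, 16.8 and 7.33 under the same settings. Genes with 5 or more opened regions fell from 40 to 23 when the gene body alone was used. The median offset of opened promoter regions, 80.0 bp, was 49.0 bp against any TSS. Genes with a closed region past the end numbered 294 within 5000 bp, 127 within 2000 bp and 415 within 10000 bp. Those with an opened one numbered 156, 63 and 297 at the same settings, which were chosen after the data were seen. All 30 motif shares rose when whole regions were searched, since wider windows hold more letters. The interferon response element, in 8.98% of closed and 1.76% of opened regions, was then in 30.1% and 14.4%, a smaller ratio. No paired analysis was possible because the lists carry no values per library. For the same reason leaving out a replicate and a stricter threshold could not be run, and depth could not be weighed.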
